A study of Mus musculus with 13 samples.

Results

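The matrix metalloproteinases (Mmp), the ADAM and ADAMTS metalloproteases with their ADAMTS-like relatives, and the tissue inhibitors of metalloproteinases (Timp) were followed through 3 deposited tables of regions that differed in 5-hydroxymethylcytosine (5hmC) in mouse knee cartilage. Members were the regions whose deposited nearest gene had an Mmp, Adam, Adamts, Adamtsl or Timp symbol with a number and at most 1 trailing letter. This gave 684 of 181833 listed regions, assigned to 78 of the 85 genes of that kind in the RefSeq table. The other 7 genes, Mmp3, Mmp21, Mmp23, Timp1, Adam1a, Adam21 and Adam34l, had no listed region in any table.

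These enzymes cut the extracellular matrix and cell surface proteins with a zinc ion at their active site. In cartilage the collagenase MMP13 cleaves type II collagen, the aggrecanases ADAMTS4 and ADAMTS5 cleave aggrecan, and both steps belong to the matrix loss of osteoarthritis. TIMPs bind the active site and block it. 5hmC is made from 5-methylcytosine by the TET enzymes, of which TET1 is one, and it is often found in the bodies of genes and at enhancers.

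MUT DMM was cartilage of mice labelled TET-/- after DMM surgery, a mouse model of osteoarthritis in which the medial meniscus no longer holds the joint; the treatment protocol says that the meniscus was taken out. WT DMM was cartilage of TET1+/+ mice after the same operation, and WT sham was cartilage of TET1+/+ knees that were opened only. All were males of the mixed strain B6;129S4 sampled 6 weeks after surgery, aged 3 to 4 months by the design text and 4 to 6 months by the treatment protocol, which also puts the control on the opposite leg. The allele behind the TET-/- label is not described further in the labels, and the MUT sham and background-control samples are not analysed here, so genotype without surgery was not compared. Only 5hmC was measured, so no RNA or protein level of a protease stands behind any value.

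The assay, reduced representation hydroxymethylation profiling, reads 5hmC only where the sequence CCGG, cut by MspI, is present. Promoter windows from RefSeq (assembly GRCm38.p6, the coordinates of mm10; 250 bases before to 50 after a start site, 300 bases in all) were therefore searched for CCGG, which reads the same on both strands. A CCGG was present in 54.2% of the 59 windows of 54 member genes and in 52.8% of all 32851 windows. None of the 4 collagenase windows held one, nor did any of the 11 windows of the remaining ADAMs, mostly genes of the testis, while all 4 membrane-type MMP windows, all 3 of the procollagen proteases and all 3 of the hyalectan-cleaving ADAMTS did. A window without CCGG could not be read by this assay. The 5 windows below show both cases, each printed 5′ to 3′ on its gene's strand with every CCGG in capitals. Those of Timp2 (chr11:118355362-118355661, minus strand), Mmp11 (chr10:75932453-75932752, minus strand) and Adamts2 (chr11:50601835-50602134, plus strand) each overlapped a region with more 5hmC in MUT DMM than in WT DMM. That of Mmp12 (chr9:7347124-7347423, plus strand, the second of its 2 listed start sites) overlapped a region that was lower in MUT DMM than in WT sham. That of Mmp13 (chr9:7272264-7272563, plus strand) is the collagenase window with no CCGG.
Timp2: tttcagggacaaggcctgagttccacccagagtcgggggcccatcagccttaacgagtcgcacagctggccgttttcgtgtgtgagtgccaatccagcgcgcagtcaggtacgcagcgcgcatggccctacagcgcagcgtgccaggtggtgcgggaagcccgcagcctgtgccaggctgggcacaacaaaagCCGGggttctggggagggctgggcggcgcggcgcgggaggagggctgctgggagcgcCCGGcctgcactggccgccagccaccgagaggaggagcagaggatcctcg
Mmp11: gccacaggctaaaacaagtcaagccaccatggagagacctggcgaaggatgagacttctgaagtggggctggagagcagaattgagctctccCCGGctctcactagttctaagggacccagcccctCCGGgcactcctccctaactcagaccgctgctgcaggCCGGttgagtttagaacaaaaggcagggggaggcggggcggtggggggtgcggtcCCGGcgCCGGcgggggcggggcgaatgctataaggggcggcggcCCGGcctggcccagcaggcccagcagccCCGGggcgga
Adamts2: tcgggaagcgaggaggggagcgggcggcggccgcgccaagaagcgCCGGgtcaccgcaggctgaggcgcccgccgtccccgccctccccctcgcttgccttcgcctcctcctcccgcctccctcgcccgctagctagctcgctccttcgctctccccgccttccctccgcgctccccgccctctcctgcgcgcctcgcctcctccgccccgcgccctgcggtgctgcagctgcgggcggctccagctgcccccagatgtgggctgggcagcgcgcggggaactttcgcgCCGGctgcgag
Mmp12: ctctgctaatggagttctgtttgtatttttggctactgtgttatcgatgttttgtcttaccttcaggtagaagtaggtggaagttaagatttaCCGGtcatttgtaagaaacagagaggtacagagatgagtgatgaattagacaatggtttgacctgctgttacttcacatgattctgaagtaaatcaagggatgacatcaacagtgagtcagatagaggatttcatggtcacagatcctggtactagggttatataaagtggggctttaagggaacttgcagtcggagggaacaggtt
Mmp13: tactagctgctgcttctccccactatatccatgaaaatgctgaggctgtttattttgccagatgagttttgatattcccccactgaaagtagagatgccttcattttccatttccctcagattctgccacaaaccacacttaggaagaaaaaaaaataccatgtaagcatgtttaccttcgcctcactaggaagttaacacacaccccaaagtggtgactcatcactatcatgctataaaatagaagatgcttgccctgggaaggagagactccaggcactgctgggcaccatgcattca

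The tables held 8 distinct libraries: 2 of MUT DMM, 3 of WT DMM and 3 of WT sham. Another MUT DMM entry in each table repeated the deeper library in every region, and it was counted once in the means and limma fits here. The authors' p-values were taken as deposited, from tables that hold this repeated entry as if it were a further library. Calls in both mutant comparisons carry that limit. Values are normalized read counts per region and can be set side by side within a table only. They were whole multiples of a step for each library, read here as 1 sequenced read. In MUT DMM against WT DMM, 1 read was worth 0.234 and 3.55 normalized counts in the MUT DMM libraries and 9.56, 0.752 and 0.609 in the WT DMM libraries. In MUT DMM against WT sham, 1 read was worth 0.736 and 9.45 in MUT DMM, and 0.277 to 1.16 in WT sham. Libraries are numbered by their order in the tables. WT DMM library 1 was nearly empty, with 4726 reads in the listed regions of WT DMM against WT sham, where the other libraries held 436852 to 2187392. A count of 0 in that library allows up to 47.0 normalized counts in that table (3 reads), and a 0 in the shallower MUT DMM library allows up to 28.3 against WT sham. These limits cover counting error only. The fit of limma (a moderated test on log2(normalized count + 1), Benjamini-Hochberg adjustment over all listed regions) was run beside the authors' calls, because the sources used here do not name the authors' test. Only regions already selected for a difference between these same libraries are listed. Adjusted p-values of limma therefore rest on preselected regions and are not an independent check of the calls. With 3 against 3 libraries an exact permutation test of a single region cannot go below 0.1, and with 2 against 3 not below 0.2.

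In wild-type knees, most listed protease and inhibitor regions were higher after DMM: 164 of 178 were called higher (authors' adjusted p under 0.05), where 93.2% of all listed regions were, and 14 were called lower, where 6.53% were. The median difference was 1.10 on the log2(normalized count + 1) scale over the members and 1.13 over all called regions. The higher regions were thinly read, with a median level of 7.45 normalized counts in WT DMM and 2.74 in WT sham. The near-empty WT DMM library was at 0 in all 164, so the groups overlapped in each. Of all 178, 3 had groups that did not overlap (2.70% of all listed regions), and without the near-empty library 143 did (81.5% of all listed regions). By gene, Adamts20 had 13 of the 164 higher regions and Adamtsl1 10, and Adam12, Adam22, Adam29 and Adamts6 had 8 each. These 6 genes held 33.5% of the higher regions, and the 14 lower ones lay at 14 genes. limma called 0 members (0 also at an unadjusted p under 0.05), where it called 0.0161% of all regions, and 132 members without the near-empty library (130 higher, 2 lower), where it called 77.8%. With WT DMM library 3 left out, 110 of the called members were higher and 68 lower. The WT DMM mean then averaged library 2 with the near-empty one, and the split over all regions was not counted. In limma's fit without library 3, which averages on the log scale, the median difference was -0.43 over the members and -0.42 over all listed regions.

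Between mutant and wild-type knees after DMM, more protease and inhibitor regions were lower than higher in the mutant. Of 228 listed members, 143 were called lower, where 64.7% of all listed regions were, and 82 were called higher, where 34.2% were. The median difference was -0.55 over the members and -0.63 over all called regions. The 82 higher members lay at a median normalized count of 32.2 in MUT DMM and 14.8 in WT DMM, while the 143 lower members lay at 2.25 in MUT DMM and 7.33 in WT DMM. The lower members were the more thinly read. Groups did not overlap in 103 members (41.4% of all listed regions), and in 174 without the near-empty WT DMM library (77.0% of all). The genes with the largest numbers of higher regions were Adam29, Adamts5 and Mmp2, with 7, 6 and 6 (23.2% of the 82), and those with the largest numbers of lower ones were Adamts20, Adamts2 and Adam29, with 8, 7 and 6 (14.7% of the 143). limma called 0 members (16 at an unadjusted p under 0.05), where it called 0% of all regions, and 37 without the near-empty library (11 higher, 26 lower), where it called 15.7%. With WT DMM library 3 left out the counts were 124 higher and 101 lower. The WT DMM mean then averaged library 2 with the near-empty one, and the split over all regions was not counted. In limma's fit without library 3 the median difference was 0.52 over the members and 0.54 over all listed regions.

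Set against wild-type sham knees, 157 of 278 listed members were lower in MUT DMM, where 56.1% of all listed regions were, and 121 were higher, where 43.2% were. Groups did not overlap in 231 (81.6% of all listed regions). The median difference was -1.08 over the members and -0.98 over all called regions. Both MUT DMM libraries were at 0 in 61 of the 157 lower members (38.9%), and in 37.6% of all lower regions. limma called 115 members lower, where it called 39.0% of all regions, and 30 higher, where it called 8.19%. Over all regions that was 28276 lower and 5934 higher, where the authors called 40684 lower and 31290 higher. Counts of limma calls at single genes below stand beside these numbers. By gene, Adam29, Adamts20 and Mmp2 had 11, 7 and 7 higher regions (20.7% of the 121), and Adam29 and Adamts20 had 12 and 9 lower ones, followed by Adam12 and Adamts14 with 7 each (22.3% of the 157 for these 4). With only regions of at least 5 normalized counts on average tested, limma called 14 of 196 members lower and 1 higher. Over all 51453 regions so tested it called 3415 lower and 148 higher. The 3 comparisons share libraries pairwise, so values from different tables are set side by side below without a test between them. Higher regions made up 93.4%, 34.6% and 43.5% of all called regions in the 3 comparisons. Subfamily and gene counts below stand beside these shares.

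**Figure D1:**
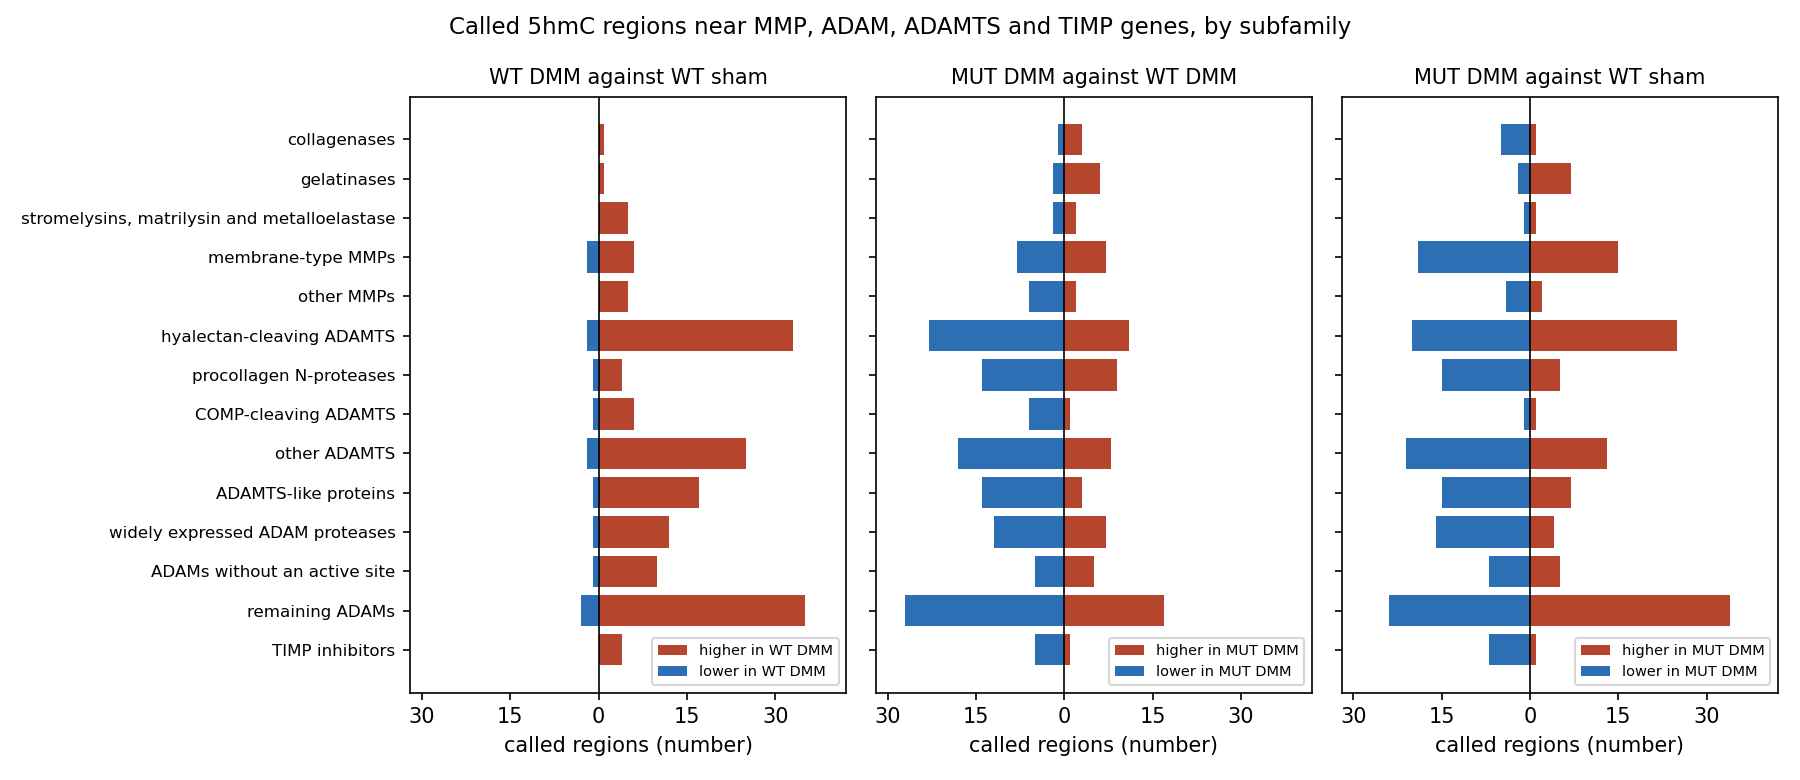
Number of called regions (authors' adjusted p under 0.05) assigned to each of the 14 subfamilies in the 3 comparisons. Bars to the right count regions higher in the first-named group and bars to the left regions lower in it: nearly every subfamily lies to the right in WT DMM against WT sham, while the gelatinases are the subfamily with 6 higher and 2 lower in MUT DMM against WT DMM.

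The collagenases, which make the first cut through fibrillar collagen, had few regions. Mmp13 (gene 17386, chromosome 9, 7272514 to 7283333), the chief collagenase of cartilage, had none within its RefSeq bounds in any table. Its region in WT DMM against WT sham lay 33.0 kb below the gene at 7239141 to 7239500, with 0, 10.7 and 15.6 normalized counts (0, 8 and 15 reads) in WT DMM, against 3.52, 5.01 and 2.73 (11, 7 and 16 reads) in WT sham. Both deeper WT DMM libraries exceeded every sham library, and the near-empty one did not. A region 17.3 kb above the gene had 121 and 42.7 normalized counts in MUT DMM, against 19.1, 33.1 and 50.5 in WT DMM, and these groups overlapped. No Mmp13 region was listed in MUT DMM against WT sham.

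Mmp8, the neutrophil collagenase, and Mmp1b, a mouse relative of the interstitial collagenase, were the collagenase genes with lower regions in the mutant. At 7551761 to 7552120 on chromosome 9, 6.31 kb below Mmp8, MUT DMM stood at 0.74 and 0 normalized counts (1 and 0 reads), against 8.48, 22.0 and 8.32 (16, 19 and 30 reads) in WT sham. The overlapping region in the other table had 0.23 and 0 in MUT DMM (1 and 0 reads), against 9.56, 1.5 and 6.70 (1, 2 and 11 reads) in WT DMM. Every MUT DMM value lay below every wild-type value in both. Mmp8 had 2 further lower regions against WT sham, including 1 in the gene at 7559201 to 7559560 with 2.21 and 0 in MUT DMM, against 10.1, 10.4 and 11.1 in WT sham. limma called all 3 (adjusted p 0.0114, 0.00203 and 0.0223), where over all regions it called 28276 lower and the authors 40684. Mmp1b had 2 lower regions inside the gene against WT sham, with both MUT DMM libraries at 0 and sham between 4.44 and 10.4 normalized counts. Its 2 regions in MUT DMM against WT DMM lay beyond the gene and were higher, for example 19.2 and 17.8 in MUT DMM against 0, 6.77 and 8.52 in WT DMM. Mmp1a and Mmp1b are similar genes on chromosome 9 with Mmp3 between them, so reads may be split between the pair. The same may hold for Adam1a and Adam1b, Adam6a and Adam6b, and Adam26a and Adam26b. Such splitting was not tested. Mmp1a had 1 region, higher against WT sham.

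The gelatinases cut denatured collagen, and their 2 genes differed in the direction of their calls. Mmp2 (gene 17390, chromosome 8, 92827290 to 92853421) had 6 higher regions and 0 lower in MUT DMM against WT DMM, and 7 higher and 1 lower in MUT DMM against WT sham. None was listed between WT DMM and WT sham. At 92816601 to 92817160, 10.1 kb below the gene's lower bound, MUT DMM had 9.59 and 7.11 normalized counts (41 and 2 reads), against 0, 0 and 0 in WT DMM. On the scale of the other table the same region had 30.2 and 18.9 in MUT DMM, against 0, 2.32 and 0.28 (0, 2 and 1 reads) in WT sham. All 6 wild-type libraries, 3 per table, were therefore close to unread where both mutant libraries had reads. The 0 of the near-empty WT DMM library allows up to 28.7 normalized counts in MUT DMM against WT DMM. That is above both MUT DMM values there, so this 0 does not show a low level. limma's difference against WT sham was 3.94 ± 0.69 (SE, log2 scale, adjusted p 0.00697), and against WT DMM without the near-empty library it was 3.21 ± 0.93 (adjusted p 0.00951).

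The other Mmp2 regions lay in the same direction with 1 exception. At 92814741 to 92814980, 12.3 kb below the gene, MUT DMM had 20.6 and 9.45 normalized counts (28 and 1 reads), against 1.59, 1.16 and 1.39 (3, 1 and 5 reads) in WT sham. In the gene, 1 region at 92828461 to 92829240 had 35.3 and 37.8 in MUT DMM against 1.06, 5.79 and 7.21 in WT sham. A strongly marked region at 92836821 to 92837240 had 175 and 142 in MUT DMM against 101, 96.1 and 94.6 in WT sham, a 1.63-fold higher mean. The exception, at 92847481 to 92847700, had 33.9 and 28.3 in MUT DMM against 55.7, 57.9 and 60.8 in WT sham. limma called 4 of the 7 higher regions and the lower one. At 92845821 to 92846020, a higher call of the authors, the MUT DMM libraries stood at 33.1 and 0, so that call rested on 1 library. Between 85 and 100 Mb of chromosome 8, a stretch chosen after its values were seen, 63.9% of all called regions were higher in MUT DMM against WT sham and 56.2% against WT DMM, above the shares of all called regions (43.5% and 34.6%). The part of that surrounding stretch in the Mmp2 values was not tested.

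**Figure D2:**
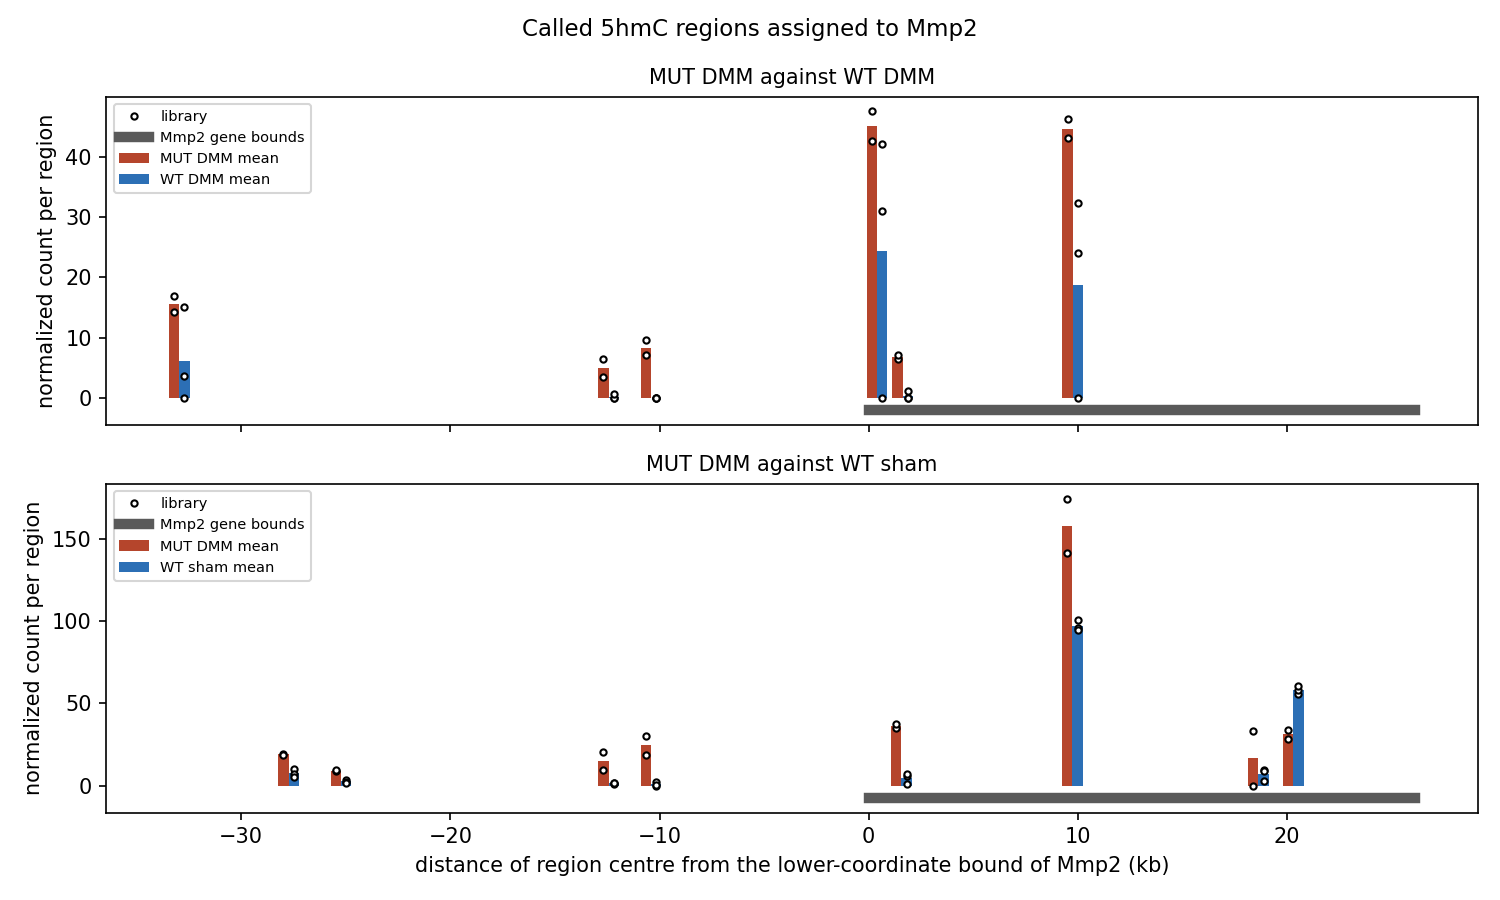
Called regions assigned to Mmp2, placed by the distance of their centre from the gene's lower-coordinate bound (kb), with the mean normalized count of each group as bars and each library as a circle; the grey bar marks the gene. MUT DMM bars exceed WT DMM bars at all 6 regions and WT sham bars at 7 of 8, and the pair of regions 10.1 and 12.3 kb below the gene is close to 0 in the wild-type libraries.

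Mmp9, the other gelatinase, had 2 lower regions in MUT DMM against WT DMM and 1 lower against WT sham. At 164930341 to 164930720 on chromosome 2, 9.61 kb below the gene, MUT DMM had 7.02 and 7.11 normalized counts, against 0, 21.8 and 26.8 in WT DMM, the 0 being the near-empty library. A region just below the gene, at 164938181 to 164938400 and listed in WT DMM against WT sham, was higher after DMM, with 0, 6.67 and 7.29 in WT DMM against 1.28, 2.15 and 1.37 in WT sham. At 164956381 to 164956660, 0.531 kb above the gene, MUT DMM had 0.74 and 0, against 6.89, 16.2 and 7.77 in WT sham (limma adjusted p 0.0103).

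Among the stromelysins, matrilysin and metalloelastase, counts were small: 5 higher and 0 lower in WT DMM against WT sham, 2 and 2 in MUT DMM against WT DMM, and 1 and 1 in MUT DMM against WT sham. Mmp12, the macrophage elastase, had its lower region on the second promoter window printed above, over the single CCGG of that window. MUT DMM stood at 0 and 0 normalized counts, against 7.95, 4.63 and 4.72 (15, 4 and 17 reads) in WT sham (limma difference -2.72 ± 0.34, adjusted p 0.00224). A 0 in the deeper MUT DMM library allows up to 2.21 normalized counts there, which is below each of the sham values. A 0 in the shallower one allows up to 28.3, above each of them, so the gap rested on the deeper library. With both MUT DMM values at 0, the SE held no spread between mutant libraries. Mmp3, stromelysin 1, was among the genes with no region.

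The membrane-type MMPs, anchored at the cell surface, were mixed, with 7 higher and 8 lower in MUT DMM against WT DMM and 15 higher and 19 lower against WT sham. Higher ones made up 46.7% and 44.1% of these calls, and 34.6% and 43.5% of all called regions. Mmp14, which activates pro-MMP2 and cuts collagen, had 1 region beyond its end (54444061 to 54444320 on chromosome 14) with 16.2 and 0 normalized counts (22 and 0 reads) in MUT DMM, against 46.7, 66.0 and 44.9 (88, 57 and 162 reads) in WT sham. The mean was 6.49-fold lower in MUT DMM, and 3.24-fold with the deeper MUT DMM library alone, since the other stood at 0. limma called it (adjusted p 0.0487). Against WT DMM, Mmp14 had 1 higher region (34.2 and 35.5 in MUT DMM against 0, 21.8 and 18.3 in WT DMM) and 2 lower ones. In wild-type knees its 1 region was higher, with 0, 12.01 and 6.25 in WT DMM against 1.28, 2.86 and 1.37 in WT sham. Mmp15 had 5 higher and 6 lower regions against WT sham. The higher one of smallest p, at 95353461 to 95353840 on chromosome 8, had 22.8 and 18.9 in MUT DMM against 8.48, 2.32 and 4.72 in WT sham, and a lower one at 95377241 to 95377600 had 2.21 and 9.45 in MUT DMM against 17.0, 15.1 and 20.5 in WT sham. Mmp15 lies in the same stretch of chromosome 8 as Mmp2.

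The ADAMTS enzymes that cut aggrecan, versican and related proteoglycans had the second-largest number of regions in WT DMM against WT sham, with 33 higher and 2 lower. After DMM, 11 were higher and 23 lower in MUT DMM than in WT DMM, and against WT sham 25 were higher and 20 lower. Under a scaling of all libraries to the same median the last split was 24 and 21. Higher ones made up 94.3%, 32.4% and 55.6% of the unscaled calls in the 3 comparisons. The shares over all called regions were 93.4%, 34.6% and 43.5%. Adamts4, an aggrecanase, had a single region in the 3 tables, inside the gene at 171257161 to 171257360 on chromosome 1. MUT DMM stood at 0 and 0 normalized counts there, against 5.83, 8.10 and 8.04 (11, 7 and 29 reads) in WT sham. No mutant read fell in it, and limma's difference was -3.04 ± 0.36 (adjusted p 0.00203). The 0 of the shallower MUT DMM library allows up to 28.3 normalized counts, above each sham value, so the gap rested on the deeper one. With both MUT DMM values at 0, the SE held no spread between mutant libraries. The same limits hold below at the Adamts2, Adamts7, Adamtsl3 and Adam22 regions without a mutant read.

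Adamts5, the main aggrecanase of mouse cartilage, had regions around its upper-coordinate bound (85901125 on chromosome 16) in each table. At 85901421 to 85901640, WT DMM had 0, 61.4 and 16.7 normalized counts (0, 46 and 16 reads), against 44.9, 51.5 and 51.3 in WT sham, a lower call in which 1 WT DMM library exceeded sham and the other 2 did not. Against WT DMM the same bounds were higher in the mutant, with 29.7 and 24.9 in MUT DMM and 0, 34.6 and 9.74 in WT DMM. The WT DMM libraries spread widely and overlapped the other group in both. Across the gene's upper-coordinate bound, at 85901021 to 85901340, MUT DMM had 33.5 and 49.8, against 28.7, 21.8 and 17.1 in WT DMM, with no overlap. The 28.7 is the near-empty library, in which 1 read is worth 9.56. An overlapping region against WT sham had 83.2 and 132 in MUT DMM, against 64.2, 44.0 and 50.5 in WT sham, 2.04-fold higher (limma difference 0.99 ± 0.33, adjusted p 0.0512, which misses the threshold). Of the 26 called Adamts5 regions in the 3 tables most lay far from the gene, up to 450.1 kb away. The one at 85971881 to 85972160 had 21.3 and 49.8 in MUT DMM against 0, 4.51 and 7.31 in WT DMM, 9.02-fold higher. Without the near-empty library the fold was 6.01, without the second MUT DMM library 5.40 and without WT DMM library 3 15.8. limma called the region without the near-empty library (adjusted p 0.00242).

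The procollagen N-proteases, which trim fibrillar procollagens so that fibrils can form, had 9 higher and 14 lower regions in MUT DMM against WT DMM and 5 higher and 15 lower against WT sham. Higher ones made up 39.1% and 25.0% of these calls, and 34.6% and 43.5% of all called regions. Adamts14 (chromosome 10) had 7 lower and 2 higher regions against WT sham. At 61207301 to 61207580 inside the gene MUT DMM had 0.74 and 0 normalized counts (1 and 0 reads), against 11.7, 12.7 and 9.43 (22, 11 and 34 reads) in WT sham. At 61201581 to 61201800, a well-read region, MUT DMM had 86.2 and 75.6 (117 and 8 reads), against 130, 126 and 117 in WT sham. Nearly the same bounds were listed against WT DMM, with 27.4 and 28.4 in MUT DMM and 28.7, 45.1 and 43.2 in WT DMM. Both groups of wild-type libraries lay above the mutant ones in these tables. Against WT DMM, though, the near-empty library stood at 28.7 beside 28.4 in the shallower MUT DMM library. With 1 read worth 9.56 and 3.55 in them, that gap is smaller than 1 read of either. limma called 3 of the 9 regions against WT sham, all lower.

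Adamts2, the N-protease of type I and II procollagen, had higher regions near its start and elsewhere and lower ones along its body. Set against WT DMM, 5 were higher and 7 lower in MUT DMM, and against WT sham 1 was higher and 6 lower. At 50711261 to 50711640 on chromosome 11, 109 kb downstream of the start site, MUT DMM had 4.42 and 0 normalized counts (6 and 0 reads), against 19.6, 18.5 and 19.4 (37, 16 and 70 reads) in WT sham (limma difference -3.12 ± 0.84, adjusted p 0.0291). A region at 50652841 to 50653100 had no mutant read and 4.77, 5.79 and 6.38 in WT sham (adjusted p 0.00203). Adamts3, which trims type II procollagen in cartilage, had its higher regions in both mutant comparisons 65.1 to 84.7 kb beyond the gene. Its 2 higher regions in WT DMM against WT sham lay in the gene and 15.4 kb beyond it. That at 89952841 to 89953480 on chromosome 5 had 47.7 and 60.4 in MUT DMM (204 and 17 reads), against 0, 19.6 and 18.3 in WT DMM, and on the other scale 123 and 123 in MUT DMM against 74.2, 75.3 and 75.2 in WT sham. The ratio to WT sham was 1.64 (limma difference 0.71 ± 0.21, adjusted p 0.0372). Inside Adamts3 both regions listed against WT sham were lower in MUT DMM.

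**Figure D3:**
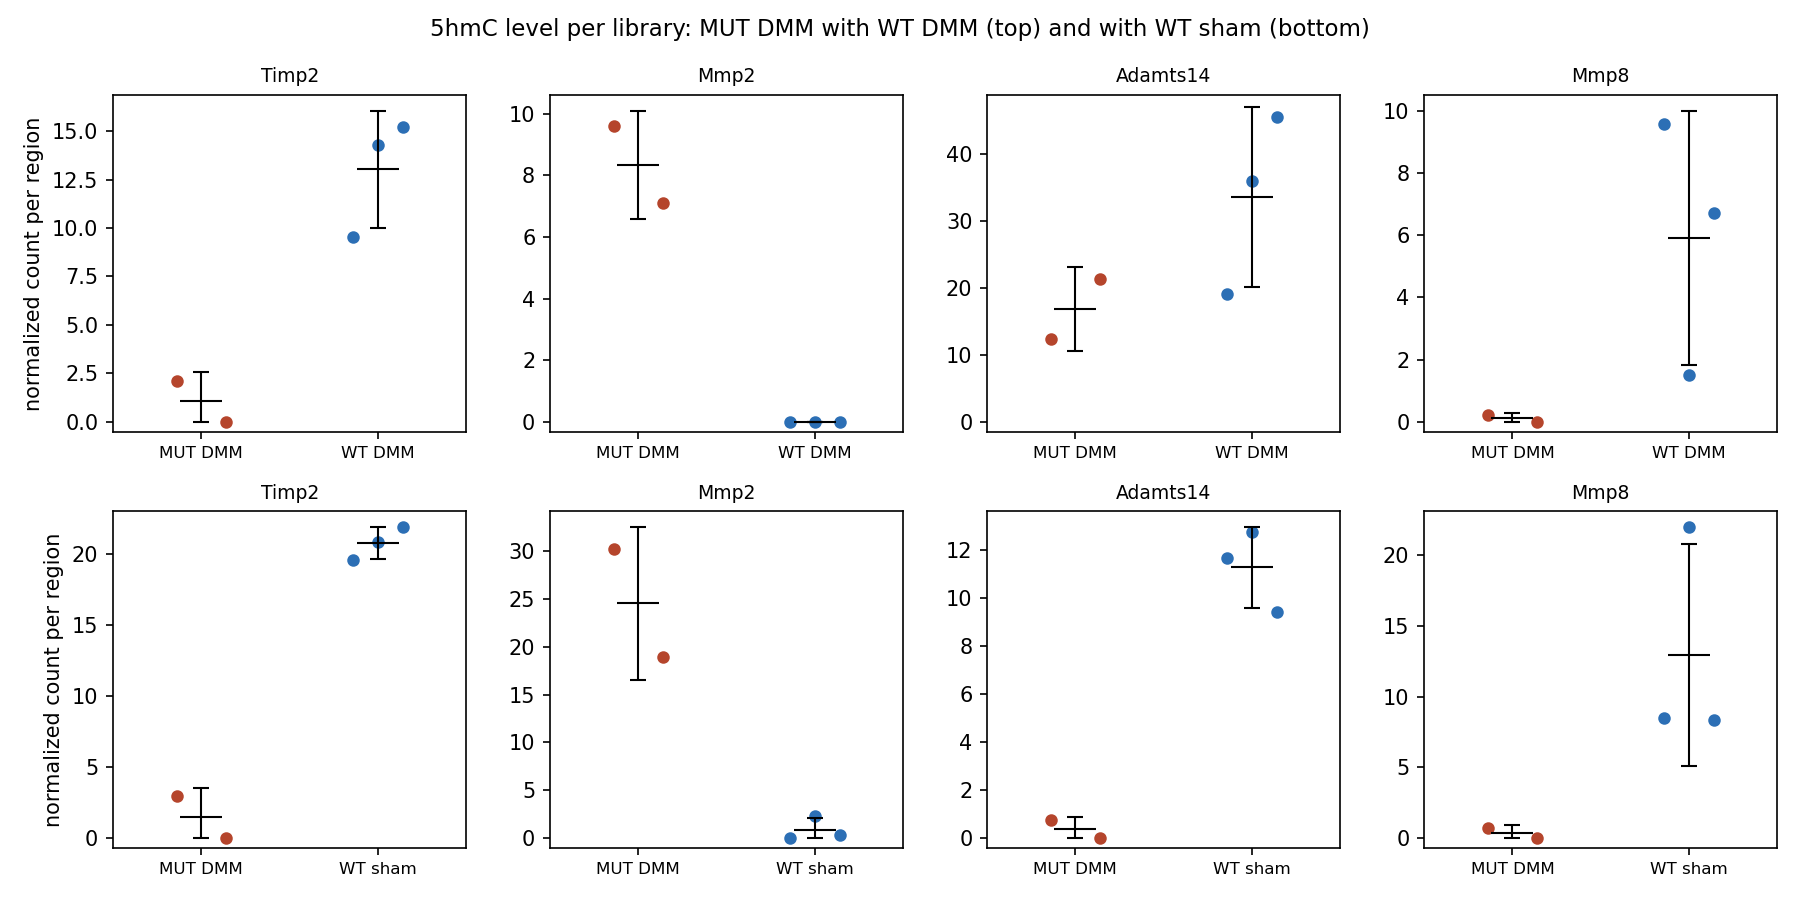
Normalized count in each library at the region of smallest authors' adjusted p for Timp2 (lower), Mmp2 (higher), Adamts14 (lower) and Mmp8 (lower), with MUT DMM and WT DMM in the upper row and MUT DMM and WT sham in the lower row. Points are libraries, bars the mean ± SD, cut at 0; groups overlap only at Adamts14 in the upper row, where the near-empty WT DMM library lies at 19.1 and the MUT DMM libraries at 12.4 and 21.3.

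The ADAMTS enzymes that cut cartilage oligomeric matrix protein had 1 higher and 6 lower regions in MUT DMM against WT DMM and 1 and 1 against WT sham. Adamts12 held a lower region at 11185881 to 11186160 on chromosome 15, with 1.17 and 0 normalized counts in MUT DMM (5 and 0 reads) against 9.56, 6.02 and 10.96 (1, 8 and 18 reads) in WT DMM. The region of Adamts7, the other member, had no read in MUT DMM and 4.24, 5.79 and 4.44 in WT sham. The remaining ADAMTS genes had 8 higher and 18 lower regions against WT DMM (30.8% higher) and 13 and 21 against WT sham (38.2% higher). Among them Adamts13, the von Willebrand factor protease, had 1.47 and 0 in MUT DMM at 27004161 to 27004480 on chromosome 2, against 13.8, 11.6 and 15.0 in WT sham.

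The ADAMTS-like proteins, which lack the protease domain and lie in the matrix with fibrillin, had 3 higher and 14 lower regions against WT DMM and 7 and 15 against WT sham. Higher ones made up 17.6% and 31.8% of these calls, and 34.6% and 43.5% of all called regions. In Adamtsl3, at 82349861 to 82350240 on chromosome 7, no mutant read was found where WT sham had 7.95, 11.6 and 11.4 normalized counts (15, 10 and 41 reads). limma's difference there was -3.48 ± 0.44 (adjusted p 0.00220). Adamtsl1 had 10 higher regions in WT DMM against WT sham. At the one of smallest p, at 86071941 to 86072220 on chromosome 4, WT DMM had 0, 5.34 and 16.7 against 1.60, 2.86 and 1.20 in WT sham.

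Among the widely expressed ADAM proteases, Adam12 (chromosome 7, 133883199 to 134225097), a long gene whose product is found in growing mesenchymal tissue and cartilage, held most regions. It had 8 higher and 0 lower in WT DMM against WT sham, 1 and 5 in MUT DMM against WT DMM, and 0 and 7 in MUT DMM against WT sham. At 134106041 to 134106260, the most strongly read of the 8, WT DMM had 0, 24.0 and 45.8 normalized counts (0, 18 and 44 reads), against 5.77, 12.9 and 4.44 in WT sham. A neighbouring region at 134106281 to 134106480 had 9.57 and 0 in MUT DMM (13 and 0 reads), against 23.3, 44.0 and 33.8 (44, 38 and 122 reads) in WT sham, and limma called it (adjusted p 0.0445). Each mutant library lay below each sham library there. limma called 4 of the 7 regions against WT sham, where over all regions it called 28276 lower and the authors 40684. Adam10 and Adam17, the main sheddases of surface proteins, had few regions. In Adam10 at 70741561 to 70741840 on chromosome 9, MUT DMM had 2.21 and 0 against 8.48, 18.5 and 15.5 in WT sham (adjusted p 0.0219). At Adam17, a lower call against WT DMM at 21345541 to 21345820 on chromosome 12 set 0.47 and 3.55 in MUT DMM against 0, 1.5 and 12.2 in WT DMM, and with WT DMM library 3 left out the mean difference turned to 0.78 higher in MUT DMM on the log2(normalized count + 1) scale. In wild-type knees the Adam17 region was higher, with 0, 6.67 and 11.5 in WT DMM against 2.24, 2.86 and 1.54 in WT sham.

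The remaining ADAMs, mostly genes of testis and sperm with tandem copies on chromosome 8, had 35 higher and 3 lower regions in WT DMM against WT sham, 17 and 27 in MUT DMM against WT DMM, and 34 and 24 in MUT DMM against WT sham. They were the largest subfamily by number in each table. Higher regions made up 58.6% of their called regions in the last, where 43.5% of all called regions were higher, and Adam29 held 11 of the 34. Most of the Adam29 regions lay far from the gene, up to 401 kb away, and the name marks only the nearest gene. At 55845461 to 55845740 MUT DMM had 75.1 and 66.1 normalized counts, against 45.6, 34.7 and 36.6 in WT sham, 1.81-fold higher.

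The group named ADAMs without an active site held only Adam11, Adam22 and Adam23, which act in adhesion. It had 10 higher and 1 lower region in WT DMM against WT sham and 5 and 5 in MUT DMM against WT DMM. Against WT sham 5 were higher and 7 lower in MUT DMM, and 3 and 9 after all libraries were scaled to the same median. In Adam22, at 8256081 to 8256440 on chromosome 5, no MUT DMM read was found where WT sham had 6.36, 6.95 and 8.60 normalized counts (limma adjusted p 0.00203).

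Of the inhibitors, Timp2 (gene 21858, chromosome 11, 118301061 to 118355411), which blocks MMPs and takes part in activating pro-MMP2, held most regions. It had 5 lower and 1 higher region in MUT DMM against WT DMM and 6 lower and 1 higher against WT sham. Between 8.19 and 9.33 kb downstream of its start site, 3 neighbouring regions were lower against WT sham, and 2 of them were also listed against WT DMM. At 118346421 to 118346920 MUT DMM had 6.63 and 0 normalized counts (9 and 0 reads), against 36.6, 39.4 and 40.0 (69, 34 and 144 reads) in WT sham. At 118346081 to 118346360 MUT DMM had 2.95 and 0 (4 and 0 reads), against 19.6, 20.8 and 21.9 (37, 18 and 79 reads) in WT sham. The mutant means were 11.7-fold and 14.1-fold lower at these, where the sham libraries were close to each other (38.6 ± 1.79 and 20.8 ± 1.15, SD, n = 3). These means hold the 0 of the shallower MUT DMM library, and with the deeper library alone the folds were 5.83 and 7.05. limma's adjusted p was 0.0198 and 0.0151, and it called 5 of the 6 lower Timp2 regions. Over all regions limma called 28276 lower, where the authors called 40684 lower.

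Set against WT DMM, the same stretch of Timp2 stood lower too. At 118346421 to 118346800 MUT DMM had 2.11 and 0 normalized counts (9 and 0 reads), against 9.56, 14.3 and 15.2 (1, 19 and 25 reads) in WT DMM. limma's difference without the near-empty library was -3.16 ± 0.996 (adjusted p 0.0190), and with it the region did not pass. The shallower MUT DMM library could hold up to 10.7 normalized counts at 0 reads in this table, so the gap rested on the deeper one. At the start site the direction was the other way: the region on the Timp2 promoter window, 118354981 to 118355560, over both CCGG printed above, had 88.0 and 71.1 in MUT DMM (376 and 20 reads), against 0, 80.5 and 34.1 (0, 107 and 56 reads) in WT DMM. These groups overlapped, and no region was listed there against WT sham. In wild-type knees Timp2 had 2 higher regions, for example 0, 12.01 and 9.37 in WT DMM against 1.92, 4.29 and 2.56 in WT sham at 118299541 to 118299740.

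Timp3, an inhibitor bound to the matrix that also blocks ADAMTS enzymes, had 1 region in each of 2 tables. At 86339061 to 86339280 on chromosome 10, WT DMM had 0, 9.34 and 16.7 normalized counts (0, 7 and 16 reads), against 1.28, 2.15 and 2.56 in WT sham, 4.34-fold higher. Without WT DMM library 3 the fold was 2.34, and without the near-empty library 6.51. At 86329881 to 86330120, MUT DMM had 0.74 and 0 (1 and 0 reads), against 5.83, 5.79 and 6.93 in WT sham (limma adjusted p 0.00651). Timp4 had 1 region, higher in WT DMM at 0, 6.67 and 21.9, against 2.56, 5.72 and 3.59 in WT sham. With WT DMM library 3 left out the Timp4 difference was -0.19 on the log2(normalized count + 1) scale. The WT DMM mean then held the 0 of the near-empty library, and library 2 alone (6.67) exceeded each sham value. Timp1 was among the genes with no region.

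Between MUT DMM and WT DMM, 8 called members (3.56%) lay on a promoter window of some gene, where 4.43% of all called regions did, and against WT sham 4 did (1.44%), where 2.37% of all did. Some members, Mmp2, Mmp9 and Adamts5 among them, were not matched to a window. Of the 8, 7 were higher, where 84.2% of the 2891 called regions on promoter windows were higher against 34.6% of all called regions. On a window of their own gene, 6 called regions were higher and 0 lower, those of Timp2, Adamts2, Mmp11, Mmp25, Adam19 and Adamts18. The Mmp25 region overlapped its window but reached 0 of the 5 CCGG in it. At Mmp11, whose region reached 1 of the 7 CCGG of its window, MUT DMM had 30.2 and 21.3 normalized counts (129 and 6 reads), against 0, 23.3 and 15.8 in WT DMM. At Adamts2 MUT DMM had 25.3 and 17.8, against 0, 23.3 and 12.8 in WT DMM. The near-empty WT DMM library was at 0 in each of the 6. Without it the groups still overlapped in 5 and did not at Adamts18, where MUT DMM had 34.4 and 28.4, against 23.3 and 24.4 in the other WT DMM libraries. Against WT sham, 2 called regions lay on a window of their own gene, Mmp12 (lower, above) and Adamts20, which had 91.3 and 85.02 in MUT DMM against 66.8, 64.8 and 66.0 in WT sham.

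**Figure D4:**
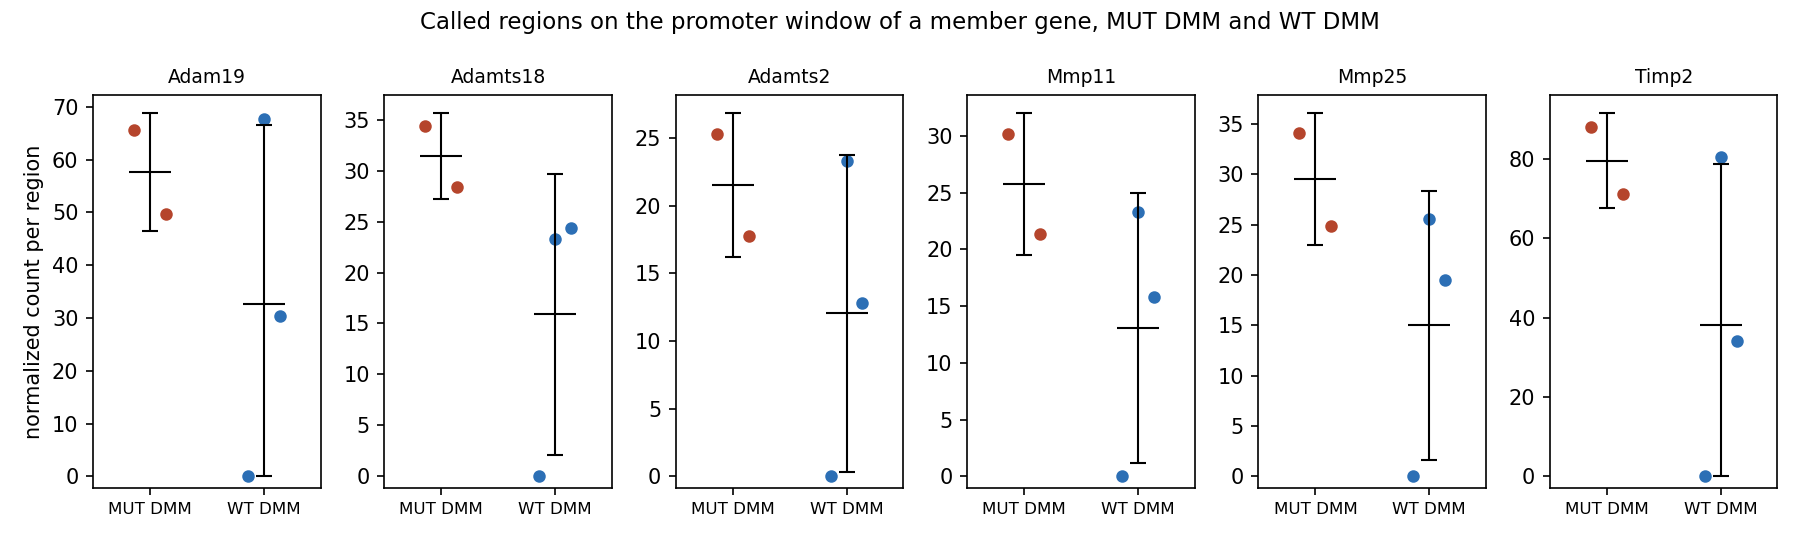
Normalized count in each library at the 6 called regions on the promoter window of their own gene, MUT DMM left and WT DMM right; points are libraries and bars the mean ± SD, cut at 0. In every panel the near-empty WT DMM library sits at 0, and the deeper WT DMM libraries overlap the MUT DMM libraries except at Adamts18.

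By the deposited distance, 59.6%, 60.0% and 60.8% of called members were in their gene in the 3 comparisons, and 46.3%, 52.1% and 50.9% of all called regions. Over the 85 genes, the number of called in-gene regions followed gene length, with a Spearman rho of 0.78 across genes, which are not independent replicates and share these libraries. The 10 longest genes, each at least 209828 bases long, held 148 of the 410 called in-gene regions.

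Of the members, 2 regions overlapped a listed region in all 3 tables by at least 1 base, and both went the same ways: higher in WT DMM against WT sham, lower in MUT DMM against WT DMM and lower in MUT DMM against WT sham. The first lay 95.4 kb from Adamts1, a proteoglycan-cleaving ADAMTS, at about 85698221 on chromosome 16. Its bounds differed: 200, 400 and 360 bases were listed in the 3 tables and the shorter one shared 180 bases with each of the others, so the tables read partly different stretches. With an overlap of at least 50% of both regions asked for, this region was the one no longer shared by all 3. It had 0, 1.33 and 24.0 normalized counts in WT DMM against 3.52, 3.58 and 1.71 in WT sham. It had 9.59 and 14.2 in MUT DMM against 0, 31.6 and 101 in WT DMM, and 24.3 and 37.8 in MUT DMM against 55.2, 91.5 and 21.1 in WT sham. WT DMM library 3 was the highest in both of its tables, and the groups overlapped in all 3. Without that library the ratio of the WT DMM to the WT sham mean was 0.226, so its direction turned, and the mean in MUT DMM was 1.33-fold below that in WT DMM, against 3.71-fold with every library. The second was near Adam29. A region had to differ in each table to be listed, so 3 listings do not describe regions that stayed level.

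Genes around the proteases, a list of 35 that holds their substrates, activators and receptors, had 46 higher and 5 lower regions in WT DMM against WT sham, 32 and 51 in MUT DMM against WT DMM, and 34 and 73 in MUT DMM against WT sham. The higher ones made up 90.2%, 38.6% and 31.8% of the list's called regions, where they made up 93.4%, 34.6% and 43.5% of all called regions. The list's median differences were 1.14, -0.55 and -1.82, where those over all called regions were 1.13, -0.63 and -0.98. Among them Ddr2, a collagen receptor, had 2 higher and 8 lower regions against WT sham, and Hspg2, the proteoglycan perlecan, 0 and 7. Col2a1, the type II collagen cut by the collagenases, had 1 and 5, and Acan, the aggrecan gene, had 1 higher and 0 lower. Against WT DMM, Hspg2 went the other way, with 6 higher and 1 lower. There Ddr2 had 1 and 5, Col2a1 1 and 2 and Acan 1 and 1. Over the list, 19 genes had a higher region against WT sham and 22 a lower one, some of them both. Marker genes of cartilage cells (12 genes) had 5 higher and 2 lower regions in WT DMM against WT sham, 10 and 10 in MUT DMM against WT DMM, and 11 and 13 in MUT DMM against WT sham; 5hmC at a marker gene is not its expression. Endothelial markers (6 genes) had 12 higher and 35 lower regions against WT sham, osteoblast markers 3 and 10, blood cell markers 8 and 11, skeletal muscle markers 5 and 5, adipocyte markers 3 and 2, and fibroblast and synovial lining markers 4 and 9. Of all called regions 43.5% were higher in that comparison. Between MUT DMM and WT DMM, where 34.6% of all called regions were higher, the same lists had 11 and 40, 3 and 4, 4 and 6, 7 and 4, 1 and 5, and 3 and 13. In WT DMM against WT sham, where 93.4% were, they had 23 and 4, 3 and 1, 8 and 1, 4 and 2, 3 and 0, and 15 and 0. The part of cell composition in the protease regions was not tested.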

How the data were processed

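5hmC was profiled in knee cartilage DNA by reduced representation hydroxymethylation profiling. Per the labels' protocols, DNA was cut with MspI, ligated to adapters, put through a BGT (glucosyltransferase) reaction, cut with MspI again and amplified for 15 PCR cycles. The submitters' processing notes name HISAT2 2.1.0, bedtools, SAMtools, bcl2fastq 2.20.0, Trim Galore 0.5.0 and the build mm10; no source used here names the region caller or the scaling. Deposited were 3 tables of regions, each with 3 normalized counts per group joined in a cell, the mean signal of each group, and p-values with their adjusted values. Every listed region had a best window (200 bases, steps of 20) with a p-value of at most 0.0001, so unchanged regions are absent. The deposited log2 fold changes were not used, since spreadsheet errors stand in some; folds were recomputed.

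Values were divided by each library's step (tolerance 0.02) to give reads. A called region had an authors' adjusted p under 0.05. The fit of limma 3.58.1 (R 4.3.3; trend, pseudocount 1) used all listed regions of a table, and was tested on simulated data: in WT DMM against WT sham with the near-empty library it made many false calls, and hardly any without that library or in the other comparisons. Count models were not run, because the values are joined, already scaled and preselected. The design text calls the replicates biological without saying that each is a separate animal, so p-values reflect only how far these libraries spread. Genes follow the deposited nearest-gene column. A deposited distance of 0 was read as in the gene; 384 of 413 such member regions lay in RefSeq bounds, and distances in kb printed here are to RefSeq bounds unless they are to a start site.

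Members, subfamilies, gene lists and tests were chosen with earlier results of these data known. Genes named were a set of cartilage interest, the region of smallest adjusted p in each subfamily and direction (some of these are counted only), the 3 genes with most called regions per direction (with ties), and regions listed in all 3 tables; a few further regions of these genes, and Ddr2, Hspg2, Col2a1 and Acan, were chosen after their values were seen. The alternatives were a stricter threshold, limma calls, a filter on low values, gene bounds extended by 5 kb, each library left out, repeated entries kept, other pseudocounts and libraries scaled to the same median. Counts of groups that do not overlap without the near-empty library, and folds with each library left out, were added after seeing the data. Python 3.11.15 was used for the tables.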

Additional observations from a re-analysis of the deposited data

How the results depend on the processing

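Under the authors' adjusted p under 0.01, with genes taken from RefSeq bounds extended by 5 kb, with repeated entries kept and with libraries scaled to the same median, the counts of called members stayed within 1.5 times in all 3 comparisons. With limma in place of the authors' calls, 0 higher and 0 lower members were left in WT DMM against WT sham and in MUT DMM against WT DMM, and 30 higher in MUT DMM against WT sham. With a mean of at least 5 normalized counts, 87 members were higher in WT DMM against WT sham, 70 were lower in MUT DMM against WT DMM and 95 were lower in MUT DMM against WT sham. The filter kept 101, 151 and 196 members in the 3 comparisons, and 25414, 45256 and 51453 of all regions. How all regions it kept split by direction was not counted, so these member counts have no share beside them. In MUT DMM against WT sham, limma's higher calls were 1 with that filter, 17 with scaled libraries and 55 with every entry kept, and its lower calls were 14 with that filter. Over all regions the higher calls were 148, 3673 and 11883, and the lower calls with that filter 3415. All regions numbered 51453 with that filter and 72486 otherwise. The scaling moved the median over all called regions from 1.13 to 0.93 in WT DMM against WT sham and from -0.98 to -1.44 in MUT DMM against WT sham; relative to it the members' medians were 0.90 and -1.49. With an overlap of at least 50% of both regions, 1 region was listed in all 3 tables in place of 2.

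Leaving out 1 library at a time gave, in WT DMM against WT sham, 110 to 166 higher and 12 to 68 lower members, with limma calls of 0 to 130 higher and 0 to 2 lower. In MUT DMM against WT DMM it gave 79 to 124 higher and 101 to 146 lower, with limma calls of 0 to 11 and 0 to 26, and in MUT DMM against WT sham limma calls of 5 to 80 higher and 75 to 117 lower. Where 1 MUT DMM library was left it was taken to vary like the others. The limma calls over all regions moved too. In WT DMM against WT sham they were 0 to 32922 higher and 7 to 811 lower. Without 1 WT DMM library, those in MUT DMM against WT DMM were 0 to 3854 higher and 0 to 6519 lower. Without 1 WT sham library, those in MUT DMM against WT sham were 1082 to 2108 higher and 19548 to 20505 lower. The members then had 5 to 10 higher and 75 to 82 lower. Leaving out WT DMM library 3 gave the largest shift of the authors' called counts in both of its comparisons. The WT DMM mean then averaged library 2 with the near-empty library, so the shift is not that of library 3 alone. Of the named regions, 5 of 29, 5 of 34 and 3 of 35 turned in at least 1 setting. Their differences on the log2(normalized count + 1) scale, as a range over the libraries left out, crossed 0 as follows. In WT DMM against WT sham these were Adamts12 -0.38 to 1.66, Adam22 -0.89 to 0.20, Adamts9 -0.0006 to 1.91, Timp4 -0.19 to 1.62 and Adam32 -2.44 to 0.014. In MUT DMM against WT DMM these were Adam11 -1.15 to 0.26, Adam17 -1.92 to 0.78, Mmp14 -1.31 to 0.083, Mmp24 -1.27 to 0.36 and Adam10 -1.49 to 0.78. In MUT DMM against WT sham these were Adamts12 -0.20 to 1.03 and Adam22 -0.016 to 0.12. With scaled libraries Adam28 turned to -0.12 and Adam22 to -0.42 in MUT DMM against WT sham. The causes were not tested. No paired analysis was possible because the joined columns carry no replicate numbers. Depth limits the low regions: 0 reads in the shallower MUT DMM library do not show that 5hmC was lower.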
